A study of Mus musculus with 6 samples.

Results

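Kcnq1ot1 and 9 other imprinted genes were followed in cultured mouse aortic endothelial cells with and without a dominant negative PPARG. The genes were Kcnq1ot1, Meg3, H19, Dlk1, Igf2, Igf2r, Grb10, Cdkn1c, Peg3 and Plagl1, and every probe set that the array annotation assigns to one of these symbols alone was taken. This gave 35 probe sets for 9 of the 10 genes, out of 18193 genes with a probe set of their own. Kcnq1ot1 was chosen by its result in this same comparison, as the gene with the smallest p among those lower in transgenic cultures. The other genes were taken as imprinted genes with those results known. Their differences between the groups are therefore given as a description, without a p-value, and are not evidence for a change in imprinted genes.

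The cultures were primary aortic endothelial cells of mice of strain C57. The transgenic mice carried human PPARG with the dominant negative V290M change, driven by the CDH5 (vascular endothelial cadherin) promoter, which is active in endothelial cells, and the controls were non-transgenic. PPARG is a nuclear receptor that activates genes by which cells take up and store lipid, and no culture was treated. For each genotype, cells of 10 mice were grown as 5 separate cultures, each pooled from 2 mice, and RNA of 3 cultures was put on Affymetrix Mouse Genome 430 2.0 arrays. About 50 ng of total RNA per culture was amplified in 2 steps before hybridization. Replicates are thus separate cultures, n = 3 per group, and that number limits the precision of every value. The labels give no age, and expression of the transgene was not assessed here.

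In imprinted genes mainly the copy inherited from one parent is transcribed, under an imprinting control region that is methylated on one of the parental chromosomes. Many lie in clusters in which a long noncoding RNA and several coding genes share one control region, and many act on growth. Kcnq1ot1 starts inside Kcnq1, is transcribed antisense to it from the paternal chromosome, and silences neighbours on that chromosome, among them the cell cycle inhibitor Cdkn1c. The arrays read total RNA and do not tell the parental copies apart.

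The promoter windows of 4 of the genes are shown because the groups did not overlap for Kcnq1ot1, Peg3 and Plagl1, and because Meg3 is the second noncoding RNA of the set with a probe set of its own. Each window runs from 250 bases before to 50 after the RefSeq transcript start (GRCm38.p6), written 5′ to 3′ on the strand of the gene, with CpG dinucleotides, the site of DNA methylation, in capitals. They are chr7:143296498-143296797 on the minus strand for Kcnq1ot1, chr7:6730370-6730669 on the minus strand for Peg3, chr10:13090582-13090881 on the plus strand for Plagl1, and chr12:109540746-109541045 on the plus strand for the first of 2 Meg3 starts.
Kcnq1ot1: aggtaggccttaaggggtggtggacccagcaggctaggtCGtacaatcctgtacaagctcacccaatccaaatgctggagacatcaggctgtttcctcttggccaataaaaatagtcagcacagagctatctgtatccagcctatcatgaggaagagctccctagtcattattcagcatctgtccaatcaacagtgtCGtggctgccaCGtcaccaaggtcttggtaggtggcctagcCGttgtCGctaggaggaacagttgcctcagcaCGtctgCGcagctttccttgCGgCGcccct
Peg3: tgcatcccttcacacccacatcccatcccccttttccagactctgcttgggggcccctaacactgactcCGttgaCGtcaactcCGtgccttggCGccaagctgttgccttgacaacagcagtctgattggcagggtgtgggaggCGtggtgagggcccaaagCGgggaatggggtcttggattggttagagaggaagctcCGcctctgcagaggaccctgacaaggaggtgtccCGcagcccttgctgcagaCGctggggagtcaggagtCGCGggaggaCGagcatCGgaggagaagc
Plagl1: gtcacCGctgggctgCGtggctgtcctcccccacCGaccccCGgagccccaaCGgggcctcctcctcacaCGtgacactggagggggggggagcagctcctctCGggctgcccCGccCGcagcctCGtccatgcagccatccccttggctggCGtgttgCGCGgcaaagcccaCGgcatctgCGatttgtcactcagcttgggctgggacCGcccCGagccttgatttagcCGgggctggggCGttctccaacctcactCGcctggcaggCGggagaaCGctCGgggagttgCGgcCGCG
Meg3: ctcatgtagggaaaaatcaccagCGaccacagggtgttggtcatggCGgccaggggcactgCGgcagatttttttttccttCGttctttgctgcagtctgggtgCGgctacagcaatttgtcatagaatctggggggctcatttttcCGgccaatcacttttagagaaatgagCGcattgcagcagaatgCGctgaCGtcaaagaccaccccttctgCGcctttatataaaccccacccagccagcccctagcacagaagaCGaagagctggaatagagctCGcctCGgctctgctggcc

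The Kcnq1ot1 window held 9 CpG dinucleotides, those of Peg3 and Meg3 13 each and that of Plagl1 26, against a median of 7 over 32851 RefSeq windows of the same length. CCAAT, searched on both strands, occurred 3 times in the Kcnq1ot1 window, 2 times in that of Peg3 and 1 time in that of Meg3, and 37.4% of all windows held it. TGCCGC, the letters known to be bound by ZFP57 when methylated, was searched on both strands and occurred 1 time each in the Plagl1 and Meg3 windows, and 11.6% of all windows held it. These letters are a description of the windows. Methylation and factor binding were not measured. RefSeq windows were matched for 8 of the 10 genes.

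Across all genes, 0 of 11208 tested genes (0%) were called between the groups (limma, Benjamini-Hochberg adjusted p of 0.05, smallest 0.428). At an unadjusted p under 0.05, 563 genes were lower and 725 higher in the transgenic cultures, 5.02% and 6.47% of those tested. A tested gene is one whose brightest probe set reached the median level of the array, a signal of 194. Transgenic replicate 3 differed from the other 2 arrays of its group across the array. Without it limma called 878 genes lower (7.83%) and 771 higher (6.88%). Differences are therefore also given without that array for the measured genes and for most other genes and lists named. Of 15 endothelial markers only 5 reached the level filter as genes (Tek, Flt1, Emcn, Eng and Egfl7), and Cdh5, whose promoter drives the transgene, Pecam1, Vwf and Kdr lay below it, while all 13 fibroblast markers reached it. The labelled cell type is thus not borne out by its defining markers on these arrays. In bulk samples fewer cells of a type and less RNA per cell cannot be told apart.

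Kcnq1ot1 gave lower signals in the transgenic cultures on all 3 of its probe sets above the filter. On the brightest, 1457781_at, the deposited signal was 1682, 2182 and 1986 in non-transgenic cultures against 675, 626 and 793 in transgenic ones. All 3 transgenic arrays lay below all 3 non-transgenic arrays, and transgenic replicate 3 lay with the other transgenic arrays. On the log2(signal + 16) scale, used for every difference below, the means were 10.93 ± 0.19 and 9.47 ± 0.17 (SD, n = 3 each). The difference, transgenic minus non-transgenic, was -1.46 ± 0.23 (limma standard error), a 2.75-fold lower level, and -1.55 without transgenic replicate 3.

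Kcnq1ot1 has 5 further probe sets. Probe set 1442029_at gave 1234, 1286 and 1547 in non-transgenic and 827, 649 and 856 in transgenic cultures, a difference of -0.79 (-0.87 without transgenic replicate 3). On 1458161_at the signals were 573, 775 and 790 against 278, 384 and 285, a difference of -1.14 (-1.08 without that array). The groups did not overlap on either. The remaining 3 lay below the filter. Of these, 1441588_at (147.8, 126.3 and 93.7 against 73.6, 67.8 and 73.0) and 1446255_at (127.1, 115.4 and 271.9 against 74.4, 59.9 and 26.2) also had every transgenic array lower, while 1459443_at stayed between 3.5 and 27.5 on all arrays with overlapping groups. In all, 5 of the 6 probe sets had every transgenic array below every control, where 12.6% of 45037 probe sets of any level did so. Nothing is read from this count, since the gene was chosen by this contrast. Its probe sets also read the same gene on the same arrays.

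**Figure D1:**
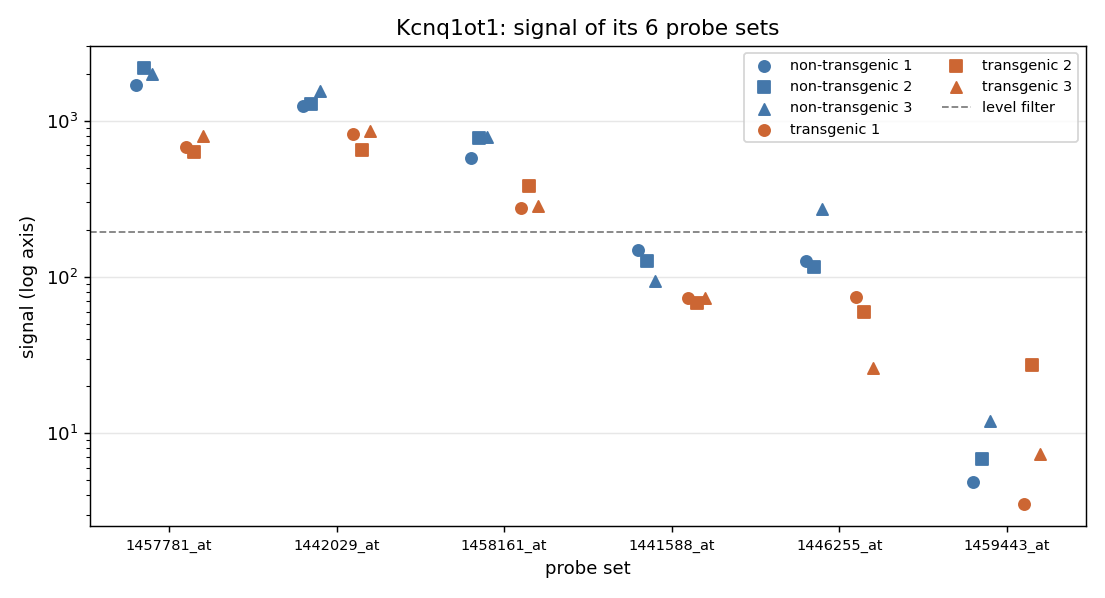
Deposited signal (log axis) of the 6 Kcnq1ot1 probe sets in each of the 3 non-transgenic (blue) and 3 transgenic (orange) cultures, with the level filter at a signal of 194 as a dashed line. Every transgenic point lies below every non-transgenic point on 5 of the 6 probe sets, and the exception, 1459443_at, stays at 27.5 or less.

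Meg3 is a maternally expressed long noncoding RNA of the Dlk1-Dio3 region. Its brightest probe set, 1439380_x_at, gave 11248, 13094 and 9309 in non-transgenic cultures against 5234, 2496 and 10720 in transgenic ones. Transgenic replicates 1 and 2 lay below the non-transgenic range and replicate 3 inside it. The difference was -1.09 ± 0.46, -1.62 without transgenic replicate 3 and -0.57 without transgenic replicate 2. The suffix x marks probe sets whose probes can also match other transcripts. All 7 Meg3 probe sets above the filter had lower transgenic means, by -0.22 to -1.54, and 2 of them had groups that did not overlap. One of these was 1436713_s_at, at 2758, 3637 and 2336 against 737, 743 and 1696 (-1.54, and -1.93 without transgenic replicate 3). The other was 1436057_at, at 498, 438 and 399 against 394, 369 and 375, the smallest difference of the 7 (-0.22, and -0.21 without transgenic replicate 3). The remaining 4 of the 11 Meg3 probe sets lay below the filter.

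H19, the noncoding RNA of the H19-Igf2 region, had no probe set of its own. The one probe set that names it is assigned to both H19 and Mir675, the microRNA cut from the H19 transcript, and gave 9975, 4846 and 3814 in non-transgenic and 10443, 2510 and 5294 in transgenic cultures. The ranges overlapped and spread widely within each group. It was not counted as H19.

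Dlk1 encodes a membrane ligand that restrains the differentiation of fat cell precursors. Its brightest probe set, 1449939_s_at, gave 19331, 19118 and 19030 in the non-transgenic cultures, a range so narrow that only 0.286% of tested genes had a smaller SD there. The transgenic cultures gave 10529, 3864 and 19783, so that 2 lay well below and replicate 3 above all controls. The difference was -1.04 ± 0.50, -1.58 without transgenic replicate 3 and -0.41 without transgenic replicate 2. The second probe set, 1442724_at, showed the same order of transgenic arrays at 825, 266 and 4179, against 2689, 2083 and 1594. Its difference was -1.07, and -2.10 without transgenic replicate 3.

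Igf2 encodes a fetal growth factor and was the one gene of the set with a higher transgenic mean. Probe set 1448152_at gave 1002, 1123 and 1166 in non-transgenic and 1136, 1182 and 1653 in transgenic cultures. The ranges overlapped, and replicate 3 was the highest. The difference was 0.25 ± 0.24, and 0.08 without transgenic replicate 3. After quantile normalization or median scaling all 3 transgenic arrays lay above the controls, as they did for 10.9% and 30.6% of all tested genes. The second Igf2 probe set lay below the filter.

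Igf2r, the receptor that takes up IGF2 for breakdown, gave 10598, 8364 and 8639 in non-transgenic and 7504, 9144 and 8538 in transgenic cultures on 1424111_at. The groups overlapped, with a difference of -0.13 ± 0.15, and -0.14 without transgenic replicate 3. Grb10 encodes an adaptor that dampens insulin and IGF receptor signalling. Its brightest probe set, 1425458_a_at, gave 25853, 24178 and 28266 against 28366, 26152 and 22175, a difference of -0.03 ± 0.12, and 0.06 without transgenic replicate 3. The signs for Igf2r and Grb10 turned under median scaling, to 0.14 and 0.23. The much dimmer Grb10 probe set 1430164_a_at differed from it, at 459, 630 and 729 against 270, 350 and 338, with no overlap and a difference of -0.88 (-0.92 without transgenic replicate 3). On the third, 1425457_a_at, the groups overlapped, with a difference of -0.69 (-0.35 without that array).

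Cdkn1c encodes the cyclin-dependent kinase inhibitor p57 and is expressed from the maternal chromosome, where Kcnq1ot1 is silent. Its single probe set, 1417649_at, gave 4850, 3554 and 4581 in non-transgenic and 3024, 2817 and 4656 in transgenic cultures. Replicates 1 and 2 lay below the controls and replicate 3 inside their range. The difference was -0.33 ± 0.24, -0.55 without transgenic replicate 3 and -0.19 without transgenic replicate 2. Kcnq1ot1 and Cdkn1c, which share a region, thus both had lower transgenic means, but only the Kcnq1ot1 groups were apart. Under median scaling the differences were -1.19 and -0.06, where the median of all tested genes was 0.25.

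Peg3 and Plagl1, both paternally expressed zinc finger transcription factors, had the widest differences among the coding genes of the set. Peg3 on 1433924_at gave 14205, 16588 and 16141 in non-transgenic cultures against 3615, 3185 and 13428 in transgenic ones. No transgenic array reached the controls, but replicate 3 lay just under them. The difference was -1.54 ± 0.49, and -2.20 without transgenic replicate 3. On 1417355_at the values were 2399, 2860 and 2289 against 233, 220 and 1529. Relative to the non-transgenic mean, replicates 1 and 2 were 10.1-fold and 10.7-fold lower there and replicate 3 was 1.63-fold lower. This probe set had the widest difference of the 25 above the filter, -2.49 (-3.38 without replicate 3). The third, 1417356_at, gave 1013, 1476 and 1281 against 268, 332 and 1153, with replicate 3 inside the control range. Its difference was -1.37.

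Plagl1 gave 17631, 22704 and 22703 in non-transgenic and 7575, 5871 and 16584 in transgenic cultures on 1426208_x_at. The groups did not overlap, again with replicate 3 nearest to the controls. The difference was -1.21 ± 0.35, and -1.64 without transgenic replicate 3. Probe set 1438588_at showed the same, at 366, 963 and 879 against 147, 146 and 311, a difference of -1.76 (-2.10 without replicate 3). On 1450533_a_at the groups overlapped (377, 931 and 817 against 186, 234 and 438), with a difference of -1.25 (-1.59 without replicate 3).

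**Figure D2:**
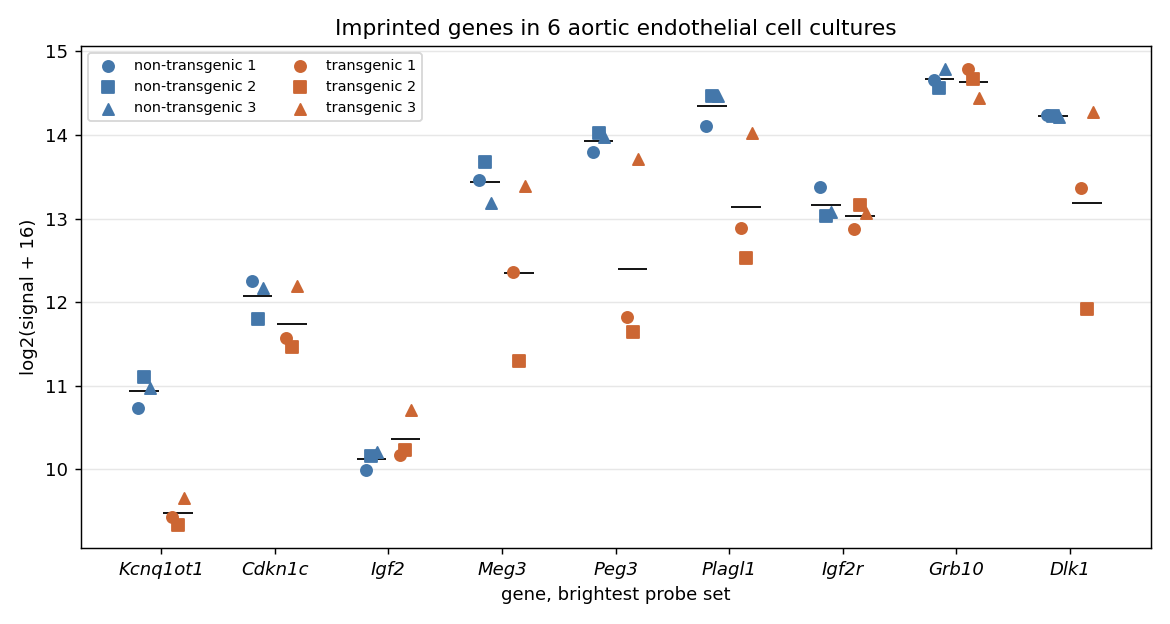
Level of each of the 9 measured genes on its brightest probe set, log2(signal + 16), in the 3 non-transgenic (blue) and 3 transgenic (orange) cultures, with replicate numbers as symbols and group means as lines. The groups are apart for Kcnq1ot1, Peg3 and Plagl1, and the transgenic replicate 3 triangle lies far above the other transgenic points for Meg3, Peg3, Plagl1 and Dlk1 but not for Kcnq1ot1.

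Counted together, 8 of the 9 genes had lower transgenic means, with a median difference of -1.04, against -0.02 over all tested genes. Without transgenic replicate 3 these medians were -1.55 and -0.06. All transgenic arrays lay below all controls for 3 of the 9, where 6.72% of all tested genes did so, and for none did they lie above, where 9.39% did. Of the 25 probe sets above the filter, 24 had lower transgenic means and 10 had no overlap, against 11.8% of 22519 probe sets at that level. Nothing is read from these counts, since the genes were picked with this contrast known. After quantile normalization Kcnq1ot1 and Peg3 kept all transgenic arrays below the controls, and after median scaling Kcnq1ot1 alone did. Of all tested genes 6.24% and 0.964% did so. Igf2 lay above the controls under both. Median scaling moved the median of all tested genes from -0.02 to 0.25, so that its values are read relative to that shift. On the deposited scaling the median signal of all probe sets was 220, 220 and 223 in non-transgenic and 184, 186 and 173 in transgenic arrays. These medians did not overlap, so neither scaling is free of a shift between the groups.

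The genes differed among themselves in the spread of the transgenic arrays. Transgenic SDs were 0.17 for Kcnq1ot1, 0.14 for Igf2r and 0.18 for Grb10, but 1.05 for Meg3, 1.15 for Peg3, 0.78 for Plagl1 and 1.19 for Dlk1. For the last 4, between 87.7% and 95.8% of tested genes had a smaller transgenic SD, and for Kcnq1ot1 21.4% had. Transgenic replicate 1 lay below all controls for 7 of the 9 genes, replicate 2 for 6 and replicate 3 for 4. Over all tested genes these shares were 35.9%, 42.7% and 22.3%.

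**Figure D3:**
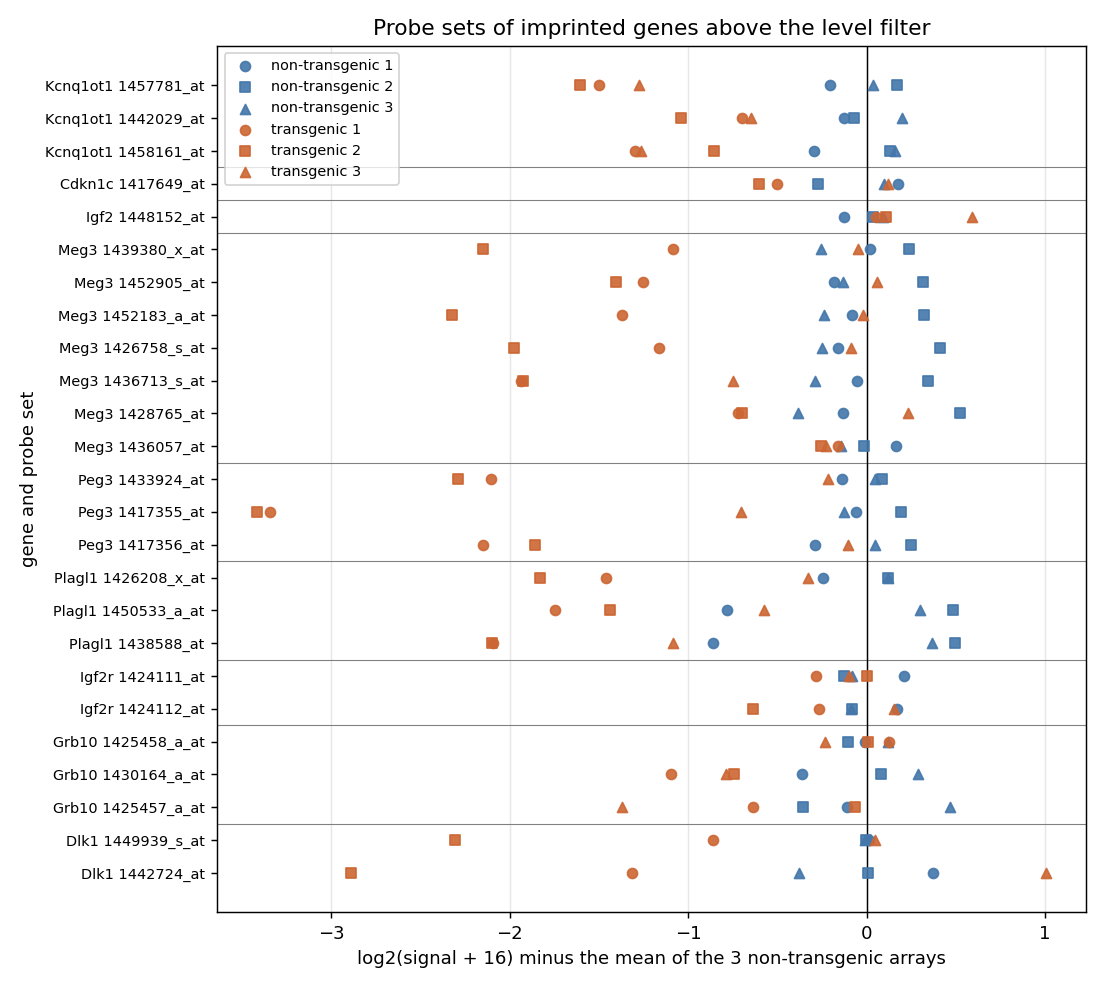
Distance of each array from the non-transgenic mean, log2(signal + 16), for the 25 probe sets above the filter, grouped by gene, with non-transgenic arrays in blue and transgenic arrays in orange. Transgenic replicate 3 (orange triangles) sits near 0 for most Meg3, Peg3 and Dlk1 probe sets and with the other transgenic arrays for Kcnq1ot1.

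Other measures also differed between the transgenic arrays, though not all set replicate 3 apart from the other arrays of its group. The 17 measured cell cycle genes averaged 1.82 and 2.25 above the non-transgenic mean (log2) in transgenic replicates 1 and 2 and -0.09 in replicate 3. The 13 fibroblast markers averaged -0.40, -0.86 and 0.11, all but 1 of them reached the filter on every array, and their summed signal was 157654 to 166826 in non-transgenic and 127155 to 161342 in transgenic cultures. They did not move as a set. By group mean 9 were lower and 4 higher, with a median difference of -0.18 (-0.25 without transgenic replicate 3). Adipocyte markers at the filter numbered 6, 6 and 5 of 8 in non-transgenic cultures and 3, 2 and 6 in transgenic ones. Their summed signals were 39470 to 73429 in non-transgenic cultures and 37123, 20967 and 31600 in transgenic ones. Leukocyte markers at the filter numbered 4, 3 and 4 of 14 against 4, 9 and 3. Their summed signals were 2220 to 3890 in non-transgenic cultures and 10558, 21666 and 3453 in transgenic ones. Averaged as log2 like the cell cycle genes, the 14 lay at 0.01, -0.29 and 0.28 in non-transgenic cultures. In transgenic cultures these averages were 0.28, 1.84 and -0.35. By that measure transgenic replicate 1 lay level with non-transgenic replicate 3. The Gapdh 3′ to 5′ signal ratio, a measure of RNA integrity and amplification, was 1.71, 1.55 and 1.51 against 1.35, 1.20 and 1.44, without overlap. With this ratio as a covariate, an alternative added after seeing the data, the difference was -1.43 for Kcnq1ot1, -0.49 for Peg3 and -0.56 for Plagl1, and it turned to 0.23 for Meg3, 0.41 for Dlk1 and 0.20 for Cdkn1c. The beta-actin ratio overlapped between the groups, at 2.17, 2.00 and 1.83 against 1.74, 1.40 and 2.21. With it as the covariate, also added after seeing the data, no sign turned. The difference was then -1.41 for Kcnq1ot1, -1.06 for Peg3, -0.89 for Plagl1, -0.59 for Meg3, -0.51 for Dlk1 and -0.15 for Cdkn1c. In transgenic replicate 3 the cell cycle and fibroblast averages lay near the non-transgenic mean, as did the brightest probe sets of Meg3, Peg3 and Dlk1. Kcnq1ot1 stayed low there. The part of cell makeup and cell cycle state was not tested.

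In the regions around the measured genes, differences lay on both sides of 0. Of 39 listed neighbours 17 were tested, and limma called 0. By mean, 7 were lower and 10 higher, with a median of 0.13 (0.14 without transgenic replicate 3, where 3 were called, all higher). In the Kcnq1 region Kcnq1 itself and Phlda2 lay below the filter, and 4 of 8 tested neighbours had lower means. The one whose groups did not overlap was Cars, a cysteinyl-tRNA synthetase, with a transgenic mean higher by 1.27 ± 0.32 (1.60 without transgenic replicate 3, limma adjusted p = 0.428 with all arrays). Under median scaling, which moved the median of all tested genes to 0.25, all 8 had higher means, with a median of 0.30. In the Dlk1-Dio3 region the noncoding RNAs Rian and Mirg differed by -0.06 and -0.28 (0.01 and -0.27 without transgenic replicate 3), beside -1.09 for Meg3. Airn, the noncoding RNA transcribed antisense to Igf2r, differed by -0.85 ± 0.26 (-0.71 without transgenic replicate 3), with no overlap and an adjusted p of 0.428 by limma. Next to Grb10, Cobl, an actin nucleator, and Fignl1, a DNA repair ATPase, had higher means by 1.37 ± 0.37 and 2.04 ± 0.79. Without transgenic replicate 3 these were 1.46 and 3.07. For Fignl1 that array, at 7.61, lay inside the control range of 7.40 to 7.92, while Cobl had no overlap. The 4 measured neighbours of Peg3 lay below the filter.

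Of 41 other imprinted genes, 26 were tested and limma called 0. By mean, 16 were lower and 10 higher, with a median of -0.18 (-0.30 without transgenic replicate 3). At an unadjusted p under 0.05, 4 were lower and 1 higher, and 5 had all transgenic arrays below the controls and 2 above, where 6.72% and 9.39% of all tested genes did so. The 5 with the smallest p each had an adjusted p of 0.428 by limma. They were Ube3a, a ubiquitin ligase (-0.68 ± 0.22), Dcn, a matrix proteoglycan that is also on the fibroblast list (-1.44 ± 0.52), Herc3 (-0.82 ± 0.30), Atp10a (0.72 ± 0.28) and Impact (-0.32 ± 0.13). In that order, these differences were -0.56, -2.01, -1.05, 0.90 and -0.34 without transgenic replicate 3. Ube3a lay at 12.20, 12.92 and 12.56 in non-transgenic and 11.94, 12.07 and 11.64 in transgenic cultures, with no overlap on the deposited scaling. Without transgenic replicate 3, limma called 5 of the 26 lower and 1 higher. Under median scaling the list's median was 0.09, below the shift of 0.25 over all tested genes, with 12 lower and 14 higher. There 0 of the 26, Ube3a included, had all transgenic arrays below the controls and 6 had all above. Over all tested genes these shares were 0.964% and 30.6% under that scaling.

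**Figure D4:**
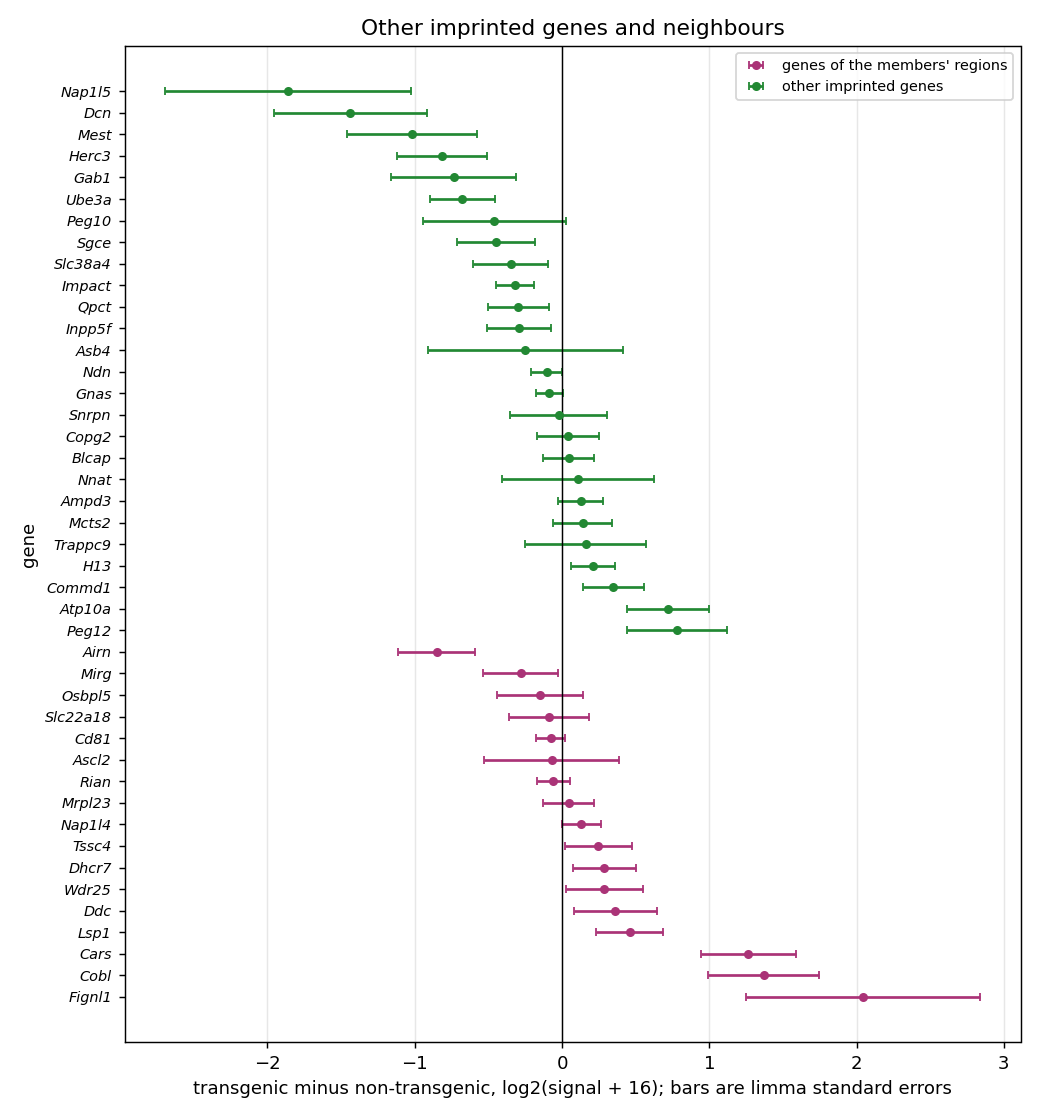
Difference between the groups, log2(signal + 16), with limma standard errors as bars, for the 26 other imprinted genes (green) and the 17 neighbours in the regions of the measured genes (purple). Points lie on both sides of 0, with 16 of 26 and 7 of 17 lower, and 0 passed the adjusted threshold in limma.

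Of 28 factors that set, keep or read imprints, 24 were tested and limma called 0. Here 17 had lower and 7 higher means, with a median of -0.29 (-0.39 without transgenic replicate 3). At an unadjusted p under 0.05, 6 were lower and 2 higher. The 5 with the smallest p were Tet2 and Tet3, which oxidise methylated cytosine (-1.14 ± 0.24 and -0.87 ± 0.32), Arid4a, a chromatin protein (-0.63 ± 0.21), Zfp445, which binds imprinting control regions (-0.62 ± 0.22), and Dnmt3a, a DNA methyltransferase (-0.95 ± 0.36). Without transgenic replicate 3 the differences were -1.33 for Tet2, -0.94 for Tet3, -0.67 for Arid4a, -0.66 for Zfp445 and -1.38 for Dnmt3a. Each had an adjusted p of 0.428 by limma. Tet2 lay at 11.57, 11.97 and 11.81 in non-transgenic and 10.36, 10.54 and 11.02 in transgenic cultures, with no overlap. Without transgenic replicate 3, limma called 3 factors lower and 4 higher. Under median scaling the median was -0.02, with 12 on each side, and the Tet2 groups still did not overlap. There 2 of the 24 had all transgenic arrays below the controls and 4 above, where 0.964% and 30.6% of all tested genes did so.

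Among partners of Igf2, Igf2r and Grb10 in the IGF system, 13 of 17 genes were tested, limma called 0, and 11 had lower means, with a median of -0.46 (-0.74 without transgenic replicate 3, where 4 were called lower). Igf1, the adult growth factor, lay at 11.49, 11.11 and 10.88 in non-transgenic and 10.29, 10.20 and 10.40 in transgenic cultures, a difference of -0.86 ± 0.23 with no overlap. Igfbp3, a binding protein, differed by -0.82 ± 0.29, and Pappa, a protease that frees IGF from its binding proteins, by -1.69 ± 0.61. These became -0.91, -1.09 and -2.39 without transgenic replicate 3. The adjusted p was 0.428 for each by limma with all arrays. Under median scaling 8 of the 13 were lower and 5 higher, with a median of -0.19. Igf1 alone of the 13 then had all transgenic arrays below the controls and 2 had all above, where 0.964% and 30.6% of all tested genes did so.

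Of the 7 other cyclin-dependent kinase inhibitors, Cdkn1b (-0.48 ± 0.16) and Cdkn2c (-0.50 ± 0.19) had lower means with the groups apart, beside -0.33 for Cdkn1c. Under median scaling 0 of the 7 had all transgenic arrays below the controls and 3 had all above, where 0.964% and 30.6% of all tested genes did so. Cdkn3, a phosphatase that peaks in dividing cells, had a higher mean (2.80 ± 0.91), though transgenic replicate 3, at 8.46, lay inside the control range of 7.45 to 8.79. Without that array the 3 differences were -0.54, -0.60 and 3.95. Limma called 0 of the 7 and gave these 3 an adjusted p of 0.428.

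The 5 tested genes whose profile over the 6 arrays was nearest to that of Kcnq1ot1 were Tet2, 2310067E19Rik, Phxr4, Lpar4 and Heg1. Nearness was the root mean square difference of log2 profiles, each centred on its own mean, and was 0.20, 0.21, 0.23, 0.23 and 0.25. Lpar4 is a receptor for lysophosphatidic acid and Heg1 a membrane protein of endothelial junctions. All 5 were lower in the transgenic arrays, which the measure itself favours. Among the imprinted genes Plagl1 was nearest to Kcnq1ot1 at 0.38, followed by Meg3 at 0.56 and Peg3 at 0.57, and Igf2 was farthest at 0.86. To the Peg3 profile Plagl1 was nearest at 0.29, followed by Meg3 at 0.39 and Dlk1 at 0.46.

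Long noncoding RNA genes as a class were set beside Kcnq1ot1, a comparison added after seeing the data. Of 286 tested noncoding genes, 50 (17.5%) had all transgenic arrays below all controls and 15 (5.24%) above. Of 10843 tested coding genes, these were 689 (6.35%) and 1035 (9.55%). The median differences were -0.20 and -0.02 (-0.30 and -0.05 without transgenic replicate 3). Noncoding genes were dimmer, with a median log2 level of 8.96 against 11.23. At a log2 level of 10 to 12, where Kcnq1ot1 lies, 8 of 57 noncoding genes (14%) and 4.84% of coding genes had all transgenic arrays lower. Over all levels, 26.5% of probe sets without a single named gene and 9.79% of those with 1 gene had all transgenic arrays lower. By log2 level these were 37.5% and 14% under 10, 10.7% and 6.57% at 10 to 12, and 6.38% and 7.78% over 12. At all levels they were 19.7% and 8.03% after quantile normalization, and 14.5% and 2.88% after median scaling. The noncoding share lower was 10.8% after quantile normalization, with 10.5% higher, and 3.5% after median scaling, with 15.4% higher. For coding genes these were 6.04% and 10.9%, and 0.848% and 31.1%. Malat1, picked out after its values were seen, was among the 50 at -0.47. The difference between the classes was not tested.

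**Figure D5:**
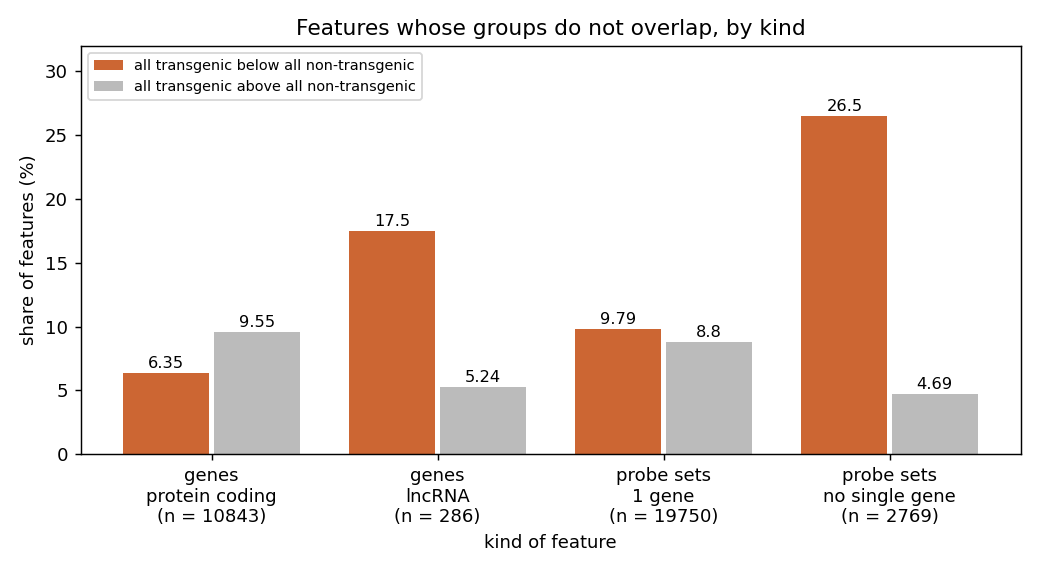
Share of features (%) with all transgenic arrays below (orange) or above (grey) all non-transgenic arrays, for coding genes, noncoding genes and probe sets with and without a single named gene. Lower features make up 17.5% of noncoding genes and 26.5% of probe sets without a single gene, against 6.35% of coding genes and 9.79% of probe sets with 1 gene, over all levels on the deposited scaling.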

How the data were processed

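RNA of 6 cultures, 3 per genotype, was measured on Affymetrix arrays, with groups and replicate numbers read from the titles. The values deposited by the authors are linear intensities for each probe set. Per the submitters' processing notes they came from MAS5, of no stated version. The deposited scaling was kept. Of 45101 probe sets, 64 were controls, 34945 had 1 gene in the array annotation, 932 several and 9160 none. Symbols of 34741 probe sets were updated through RefSeq's mouse table (GRCm38.p6), used otherwise for gene type and promoter sequence only.

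Intensities were taken as log2(intensity + 16). The probe set of highest mean stood for each gene, and 11208 of 18193 genes with a mean at or above the median probe set were tested in R 4.3.3 with limma 3.58.1 (lmFit, eBayes with trend, two-sided) with Benjamini-Hochberg adjustment at 0.05. The fit was tested on simulated data. No 2 arrays were copies, with at most 0.142% identical values.

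Members and gene lists were chosen with earlier results of these data known. All probe sets of the members are given. Of the other lists, the text names tested neighbours, the 5 genes with the smallest p among other imprinted genes and imprinting factors, the 3 among IGF and kinase inhibitor genes, and the 5 genes with profiles nearest to Kcnq1ot1. The alternatives were other pseudocounts, filters and scalings, probe set averaging, array weights, a replicate block and each array left out. The covariate fits with control probe set ratios, the noncoding class and the scaling of lists were added after seeing the data.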

Additional observations from a re-analysis of the deposited data

How the results depend on the processing

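The Kcnq1ot1 difference kept its sign in 15 of 15 alternative settings, between -1.61 and -0.88. It was -1.19 under median scaling and -0.88 as the mean of all its probe sets. The sign of Peg3, Plagl1 and Igf2 also held in 15 of 15. Meg3, Dlk1, Cdkn1c and Igf2r kept it in 14 and Grb10 in 10. For Kcnq1ot1, Peg3 and Plagl1 the groups did not overlap. Another pseudocount, the replicate block, array weights or leaving out an array therefore could not turn their sign. Limma called 0 genes in all, and between 0 and 1649 with 1 array left out, the highest without transgenic replicate 3. Estimated array weights gave 5504 calls, 2953 lower and 2551 higher. The weights were 0.553, 4.65 and 1.20 for non-transgenic replicates 1 to 3. For transgenic replicates 1 to 3 they were 5.24, 0.349 and 0.177. That fit thus leaned mostly on 1 array of each group. The cause of these weights and calls was not tested. With the replicate number as a block, 0 genes were called. The Kcnq1ot1 difference stayed at -1.46, since a block cannot move a difference when each number holds 1 array per group. Same-numbered arrays deviated from their group means with correlations of 0.04, -0.28 and -0.03, and other pairs with correlations between -0.16 and 0.31. With 3 arrays per group, these values cannot tell whether same-numbered arrays shared a batch. Genes below a signal of 194 were tested only in the fit with no filter, which also called 0. Leaving out transgenic replicate 2 moved Dlk1 to -0.41, Meg3 to -0.57 and Cdkn1c to -0.19.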
